A study of Arabidopsis thaliana with 9 samples.

Results

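Leaf transcripts of the Arabidopsis mutant slh1 and of its parental ecotype No-0 (Nossen) were compared at 28 °C, before any transfer to a lower temperature. Genes were taken from the sense strand where at least 20 tags were counted in slh1 or in No-0, which gave 2302 genes of the 4261 that reached that number in any of the 8 libraries of the series. The compared groups were slh1 leaves at 0 h and No-0 leaves at 0 h, from 4-week-old plants raised at 28 °C in short days, with no agent named for either. The series further holds slh1 and No-0 leaves at 6, 9 and 24 h after a transfer to 21 °C. Each group had 1 library, so that no value at 0 h has a replicate, and the differences between genotypes, between plants and between library preparations cannot be told apart. The labels name no cross or second allele, so slh1 stands here for the 1 mutant line.

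RRS1 and RPS4 encode a pair of nuclear immune receptors of the TIR, nucleotide-binding and leucine-rich repeat type that act together to recognise bacterial effectors. In slh1 an insertion in the WRKY domain of RRS1 makes the pair active without a pathogen, which leads to stunting and to defence through EDS1 and salicylic acid. Warm growth holds this phenotype back, as it does for many autoimmune mutants of plants. The 0 h pair therefore addresses how similar the genotypes were before the shift.

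EXPRSS Tag-seq counts 1 tag near the 3′ end of each transcript, so levels are given as tags and as tags scaled to 1000000 sense tags per library (TPM). The slh1 library held 200614 sense tags and the No-0 library 362764. A single tag was worth 4.98 TPM in slh1, against 2.76 TPM in No-0, and 20 tags corresponded to 99.7 and 55.1 TPM. Antisense tags made up 11.6% of all tags in slh1 and 11.9% in No-0, and chloroplast loci held 20.6% (95% Wilson interval 20.4 to 20.8) and 22.6% (22.5 to 22.8) of sense tags. Leaf transcripts led both libraries, and 22 of the 23 listed genes for light-harvesting proteins and Rubisco were among the 2302 genes. Of 12 marker genes of other organs and cell types, only the epidermal GL2 and the phloem SUC2 reached 20 tags. The list summed to 24.5 tags (122 TPM) in slh1, against 64 tags (176 TPM) in No-0, with the root gene PYK10 at 0 tags in both. SUC2, the sucrose transporter of phloem companion cells, had 4 tags in slh1, against 25 in No-0, a log2 ratio of -1.79 (95% interval -3.77 to -0.26). Its part in the results below was not tested, and in leaf tissue fewer cells of a type and less RNA per cell cannot be told apart.

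For each gene the ratio of slh1 to No-0 was given a 95% interval for the ratio of 2 counts, which covers counting error only. The interval is exact for whole counts. It is approximate where tags were split between loci, and does not cover the error of that split. A gene was called apart where that interval lay wholly beyond 2-fold, and close where it lay wholly within 2-fold on either side of equal. By this rule 13 genes (0.565%) were higher in slh1 and 13 genes (0.565%) were lower. A further 770 genes (33.4%) were close, and 1506 were neither. The point ratio lay within 2-fold for 1965 genes (85.4%), was 2-fold or more higher in slh1 for 104 genes (4.52%) and 2-fold or more lower for 233 genes (10.1%). The median log2 ratio was -0.07 and the median size of the log2 ratio was 0.38. Across the 2302 genes, which are not replicates, Pearson's r of log10(TPM + 1) was 0.87 and Spearman's rho was 0.81.

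**Figure D1:**
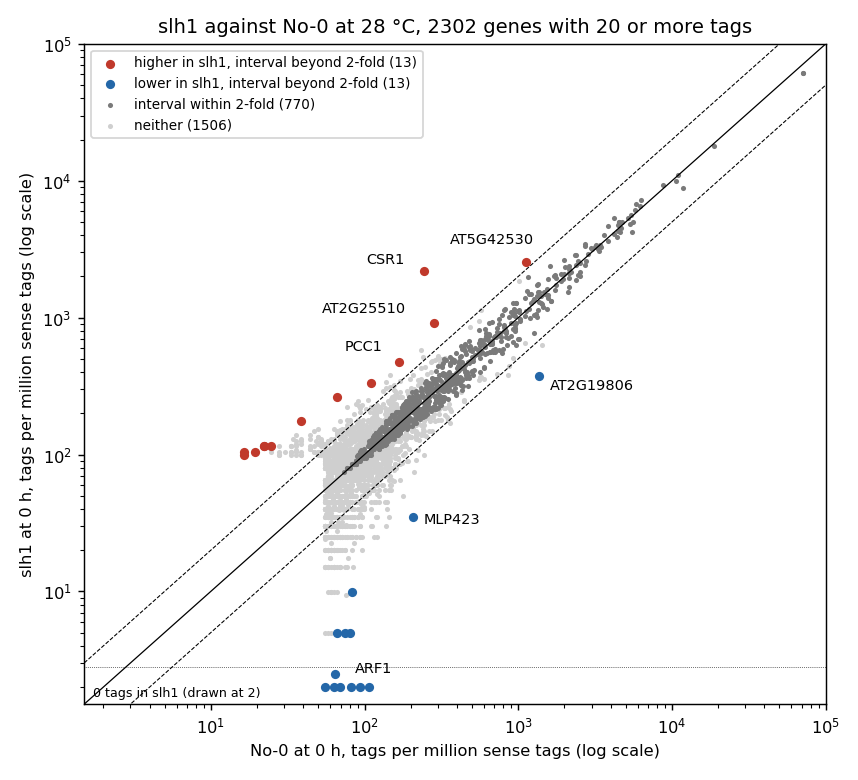
Levels of the 2302 genes at 0 h, slh1 on the vertical axis and No-0 on the horizontal axis, both in TPM on log scales. The solid line marks equal levels and the dashed lines 2-fold. The 13 genes higher in slh1 (red) lie above the upper dashed line, the 13 lower genes (blue) below the lower one with 6 of them at 0 tags in slh1, and the 770 close genes (dark grey) follow the line of equal levels.

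How many genes could be called depended on their tags. Of the 217 genes with 300 or more tags over both libraries, 204 (94.0%) were close. The share of close genes was 72.8% among the 456 genes with 100 to 300 tags, 30.9% among the 709 genes with 50 to 100 tags and 1.63% among the 920 genes with 20 to 50 tags. Of the 26 genes apart 18 lay in this lowest bin (1.96% of it), and 2, 3 and 3 in the bins above it (0.282%, 0.658% and 1.38%). No gene under 41.75 summed tags was called close. The median size of the log2 ratio, which falls with tags through counting error alone, was 0.18 at 300 or more tags, and 92.6% of these genes lay within 1.5-fold by the point ratio. Even so, the interval held a ratio of 1 for 1757 genes (76.3%) in all and for 56.7% of the genes with 300 or more tags. It lay above 1 for 269 genes (11.7%) and below 1 for 276 genes (12%). A share of such intervals excludes 1 through counting error alone, and that share was not subtracted. The sizes of these differences were not separated, and the genes were not recounted under another scale. TMM scaling, described below, shifts each log2 ratio by -0.18, about the median size at 300 or more tags. How many differences exceeded counting error is therefore not settled by these counts.

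The unequal depth set which genes entered. Both libraries had at least 20 tags for 1250 genes, and of these 734 (58.7%) were close, 6 higher in slh1 and 1 lower. Only No-0 reached 20 tags for 991 genes, which held 12 of the 13 lower genes. Only slh1 reached it for 61 genes, which held 7 of the 13 higher genes. Genes that entered through 1 library alone were taken for a high count there, and the 19 calls among them are read with that limit. At the threshold itself, the 94 genes whose higher count was 20 to under 21 had a median log2 ratio of -0.15, and the 102 genes just under it, at 19 to under 20, had -0.07.

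The same measures were taken in the later pairs, which share no library with the 0 h pair. At 6, 9 and 24 h the pairs held 2783, 2993 and 3106 genes by the same rule. At 6 h 56 genes (2.01%) lay above 2-fold in slh1 and 5 genes (0.18%) below. The same counts were 38 (1.27%) and 7 (0.234%) at 9 h, and 56 (1.8%) and 37 (1.19%) at 24 h. Genes apart in either direction thus came to 1.13% before the transfer and, in time order, to 2.19%, 1.5% and 2.99% after it. The share of close genes was 33.4% before the transfer, against 34.4%, 40.3% and 25.9% after it. Pearson's r at 0 h (0.87) compares with 0.88, 0.88 and 0.81 in the later pairs. Depth differed between the pairs, with 393953, 401734 and 205619 sense tags in slh1, against 314319, 363689 and 503398 in No-0. Within bins of equal summed tags, the median size of the log2 ratio was lowest at 0 h in each of the 4 bins. Centred on the median of each pair it was 0.30 at 0 h, against 0.35, 0.31 and 0.37 in the later pairs, at 100 to 300 tags. Tags were split differently between the libraries of each pair, so the bins do not match counting error. With 1 pair a time point these differences between pairs were not tested.

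**Figure D2:**
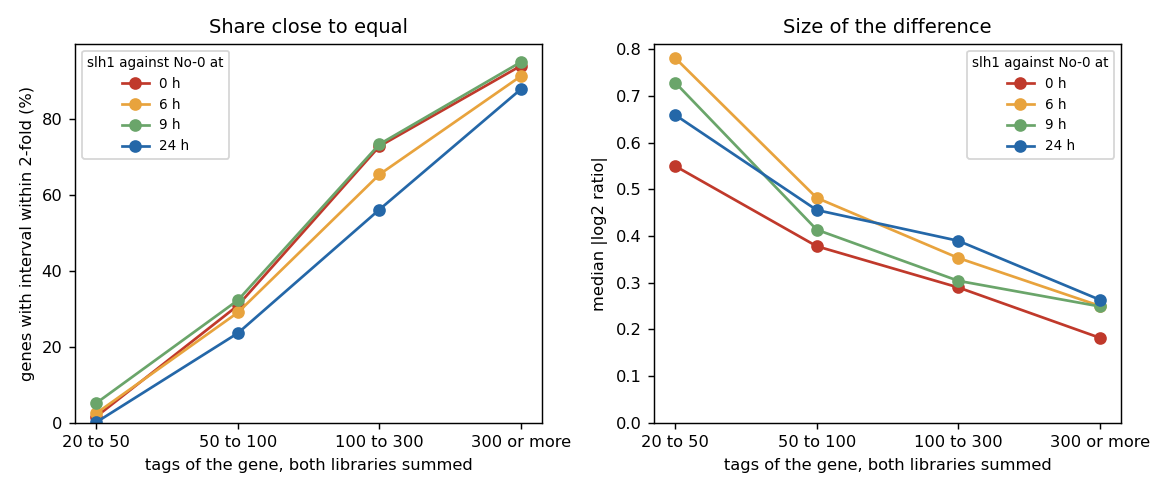
Left, the percentage of genes whose 95% interval of slh1 over No-0 lay within 2-fold; right, the median size of the log2 ratio, both by the gene's tags summed over the 2 libraries and with 1 line per time point. The 0 h line reaches 94.0% at 300 or more tags on the left and is the lowest line in every bin on the right, down to 0.18.

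RRS1 (AT5G45260, chromosome 5, 18326203 to 18332920 in TAIR10.1) had 2 tags in slh1, against 3 in No-0 at 0 h, a log2 ratio of 0.27 (95% interval -3.31 to 3.40). A tag count does not show the insertion, so this value does not check the labels. RPS4, its partner, had 0 tags in both genotypes, which allows up to 3 tags, or 14.95 TPM in slh1, against 8.27 TPM in No-0. The paralogs TTR1 (AT5G45050) and AT5G45060 had 1 and 0 tags in slh1 and 1 and 1 in No-0. A difference in the receptor transcripts was therefore not detectable at this depth. Within 500 kb on either side of RRS1, 18 genes had 20 or more tags, and none was apart, 3 were close, and their median log2 ratio was 0.03 with a range of -1.88 to 1.11. The interval lay above 1 for 2 of them and below 1 for 3, against 11.7% and 12% of all genes. Over all 2302 genes 1.13% were apart and 33.4% close, so that none apart among 18 says little about this region.

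Of 12 genes of EDS1 signalling, the lipase-like proteins EDS1, PAD4 and SAG101 with their helper receptors and chaperones, none reached 20 tags. EDS1 had 0 tags in both genotypes, PAD4 0 in slh1, against 1 in No-0, and SAG101 0 and 4. NDR1, a membrane protein of immune signalling, had 4 tags in slh1, against 0 in No-0, and the receptor gene AT5G66910 had 5 and 0, and these intervals lay above 1 with lower bounds of the log2 ratio of 0.26 and 0.73. SGT1B, a co-chaperone of immune receptors, had 9 tags in slh1, against 10 in No-0. The summed list came to 21 tags in slh1, against 25 in No-0, a log2 ratio of 0.60 (-0.31 to 1.499). Genes left under 20 tags could reach 99.7 TPM in slh1 but only 55.1 TPM in No-0, which favours higher values in slh1 in any such sum.

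Of 27 genes of salicylic acid synthesis and response 2 had 20 or more tags, and both intervals lay above 1, as did those of 11.7% of all genes. PCC1, a small protein gene induced by pathogens and under clock control, had 95.5 tags (476 TPM) in slh1, against 61 tags (168 TPM) in No-0. Its log2 ratio was 1.501 (1.02 to 1.99), and its tags were split with other loci in some libraries. Its call as apart was lost under each of the 3 other scalings, with lower bounds of 0.84 to 0.98. ACD6, a membrane protein with ankyrin repeats that promotes salicylic acid signalling, had 68.5 tags (341 TPM) in slh1, against 50 tags (138 TPM) in No-0, a log2 ratio of 1.31 (0.76 to 1.86) that was not wholly beyond 2-fold. The median of the list, 1.41 over 2 genes, compares with -0.07 over all 2302 genes.

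The other salicylic acid genes were near the limit of counting. The 22 genes of this list that are in the tables and stayed under 20 tags summed to 34 tags (169 TPM) in slh1, against 41 tags (113 TPM) in No-0, a log2 ratio of 0.58 (-0.12 to 1.28). The same sum was 1.26 (0.46 to 2.07) over 4 common reference genes and -0.50 (-1.09 to 0.06) over 9 genes of branched-chain amino acid synthesis. A value of this size is thus not particular to salicylic acid genes. ECS1 had 6 tags in slh1, against 1 in No-0, with an interval of the log2 ratio from 0.40 to 8.96. LURP1, which acts in basal defence to an oomycete, had 8 tags in slh1, against 4 in No-0, and its interval of -0.05 to 4.04 held equal levels. EDS16, the isochorismate synthase that makes most pathogen-induced salicylic acid, had 0 tags in slh1, against 6 in No-0, and the transcription factor WRKY70 had 4 and 7. BGL2 (PR2) and PR5, which encode secreted defence proteins, had 0 tags in both genotypes at 0 h. Among genes of jasmonate synthesis and response LOX2, a lipoxygenase, had 140 tags (698 TPM) in slh1, against 221 tags (609 TPM) in No-0. The allene oxide synthase AOS had 53 tags (264 TPM) in slh1, against 96 tags (265 TPM) in No-0. Of the 4 jasmonate genes with 20 or more tags 3 were close, against 33.4% of all genes, and none was apart, against 1.13%. The 3 close genes had 50 to 100, 100 to 300 and 300 or more summed tags, where 30.9%, 72.8% and 94.0% of genes were close. The fourth, JR1, had 20.8 tags in slh1, against 24.5 in No-0, a log2 ratio of 0.62. VSP1, a vegetative storage protein gene under jasmonate control, had 0.5 tags in slh1, against 11 in No-0, an interval of -13.69 to -0.10.

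CSR1 stood furthest from equal among the higher genes. It encodes acetolactate synthase, the enzyme at the start of branched-chain amino acid synthesis and the target of sulfonylurea and imidazolinone herbicides, and lies on the minus strand of chromosome 3 from 18001283 to 18003749 (TAIR10.1). It had 440 tags (2193 TPM) in slh1, against 89 tags (245 TPM) in No-0, an 8.94-fold difference with a log2 ratio of 3.16 (2.83 to 3.51). No other gene was higher beyond 4-fold by its interval. CSR1 had whole counts in all 8 libraries, and the closest other protein to it in the annotation was 23.8% identical. In the later pairs it had 2069, 1857 and 3258 TPM in slh1 at 6, 9 and 24 h, against 223, 253 and 149 TPM in No-0. The slh1 level thus lay above that of No-0 in each of 4 pairs, with log2 ratios of 3.16, 3.22, 2.88 and 4.45 at 0, 6, 9 and 24 h. The labels do not give the origin of the slh1 line, so the RRS1 mutation and any other difference between the lines cannot be told apart as the source of this value.

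The other genes of branched-chain amino acid synthesis did not share a difference of that size. Of 18 listed genes 9 had 20 or more tags, with CSR1 apart, 1 close and 7 neither. The interval lay above 1 for 4 of the 9 (44.4%, against 11.7% of all genes) and below 1 for none. CSR1, the gene furthest from equal, is among these 4, so the share is in part set by that choice. IMD1, an isopropylmalate dehydrogenase of leucine synthesis, had 76 tags (379 TPM) in slh1, against 52.8 tags (146 TPM) in No-0, a log2 ratio of 1.38 (0.85 to 1.91). IIL1, a large subunit of isopropylmalate isomerase, had 80 tags (399 TPM) in slh1, against 98 tags (270 TPM) in No-0, a log2 ratio of 0.56 (0.12 to 1.00). The ketol-acid reductoisomerase gene AT3G58610 was close, with 52 tags (259 TPM) in slh1, against 121 tags (334 TPM) in No-0. VAT1 (AT5G16290), a regulatory subunit of acetolactate synthase, had 0 tags in slh1, against 17 in No-0, with an upper bound of the log2 ratio of -1.19. The list's median log2 ratio was 0.60, and 0.12 where genes with 10 or more tags were taken. The 9 genes under 20 tags summed to 37 tags (184 TPM) in slh1, against 94.7 tags (261 TPM) in No-0. That sum had a log2 ratio of -0.50 (-1.09 to 0.06), with 3 genes higher and 5 lower in slh1.

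The 12 other higher genes had between 20 and 513.5 tags in slh1. AT5G42530, an uncharacterized gene, had 513.5 tags (2560 TPM) in slh1, against 405 tags (1116 TPM) in No-0, a log2 ratio of 1.20 (1.01 to 1.39). AT2G25510, also uncharacterized, had 182 tags (907 TPM) in slh1, against 103 tags (284 TPM) in No-0, a log2 ratio of 1.68 (1.32 to 2.04). These and PCC1 had the most tags of the 12, and their intervals were the narrowest among them. A pair of them belongs to growth and the cell wall. EXPA1, an expansin that loosens cell walls, had 67 tags (334 TPM) in slh1, against 40 tags (110 TPM) in No-0, and AT5G14920, of the gibberellin-regulated GASA family, had 35 tags (174 TPM) and 14 tags (38.6 TPM). AT1G19960, annotated as a transcription factor, had 53 tags (264 TPM) in slh1, against 24 tags (66.2 TPM) in No-0.

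There were 7 higher genes that reached 20 tags in slh1 only, AT5G14920 above and 6 others. AK3, an aspartate kinase at the start of lysine, threonine and methionine synthesis, had 20 tags in slh1, against 6 in No-0. FQR1, a quinone reductase induced by auxin, and AT2G34585 each had 23 tags in slh1, against 8 in No-0, and AT1G51090, of a heavy-metal domain family, had 23 and 9. ROPGEF11, an exchange factor that activates ROP GTPases, had 21 tags in slh1, against 6 in No-0, and RK2, an S-domain receptor kinase, had 21 and 7. The log2 ratios of these 6 were 2.21 to 2.66, with lower interval bounds between 1.04 and 1.31, close to the 2-fold limit.

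Of the 13 lower genes 6 had no tag in slh1. ARF1 (AT1G23490, plus strand of chromosome 1, 8336593 to 8338827 in TAIR10.1), a small GTPase of vesicle coat assembly at the Golgi, had 0 tags in slh1, against 39 tags (108 TPM) in No-0, at least 7.19-fold lower against a floor of 3 tags in the slh1 library with the No-0 count taken as exact. Its interval, which also holds the counting error of No-0, ended at a log2 ratio of -2.48. The glycine-rich protein gene AT4G29020 had 0 and 34 tags, AT2G45520 0 and 29.5, and STL2P, related to the SEC12 proteins of vesicle export from the endoplasmic reticulum, 0 and 25. SEC5A, a subunit of the exocyst that tethers secretory vesicles, had 0 tags in slh1, against 23 in No-0, and KAB1, a potassium channel beta subunit, had 0 and 20. Against the same floor, with the No-0 counts again taken as exact, these were at least 6.27-, 5.44-, 4.61-, 4.24- and 3.69-fold lower in slh1. Their intervals ended at log2 ratios of -2.27, -2.05, -1.80, -1.67 and -1.45.

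ARF1 belongs to the A1 family of ARF GTPases, of which 4 other members are given here. Its protein was 100% identical to that of ARFA1D, which had 18 tags (89.7 TPM) in slh1, against 69 tags (190 TPM) in No-0, a log2 ratio of -1.08 (-1.92 to -0.32). ARF1A1C was close, with 43 tags (214 TPM) in slh1, against 70 tags (193 TPM) in No-0, and ARFA1E had 25 tags (125 TPM) and 29 tags (79.9 TPM). ARFA1F had 0 tags in slh1, against 9 in No-0. Summed over the family with ARF1 included, slh1 had 86 tags (429 TPM) and No-0 216 tags (595 TPM), a log2 ratio of -0.47 (-0.85 to -0.11). The sum thus differed by less than ARF1 alone. ARF1 was picked for its low count in slh1, so this sum does not show a decrease of the family apart from ARF1. On the antisense strand of ARF1 slh1 had 7 tags and No-0 6. With both strands summed, the log2 ratio of ARF1 was -1.83 (-3.22 to -0.67), which is not wholly beyond 2-fold.

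The lower genes with tags in both libraries were led by AT2G19806 and MLP423. AT2G19806, an uncharacterized locus, had 75.7 tags (377 TPM) in slh1, against 495.5 tags (1366 TPM) in No-0, a log2 ratio of -1.86 (-2.23 to -1.51). Its sense strand holds 24 consecutive A, and its counts were not whole in 8 of 8 libraries, so its value is uncertain. MLP423, of the major latex protein family, had 7 tags (34.9 TPM) in slh1, against 75 tags (207 TPM) in No-0, a log2 ratio of -2.57 (-3.93 to -1.45), with whole counts. SIGA, a sigma factor of plastid RNA polymerase, and AT1G13650 had 1 tag each in slh1, against 29 and 27 in No-0. LGO, a cell cycle inhibitor of giant epidermal cells, had 1 tag in slh1, against 24 in No-0, and CAM1, a calmodulin, had 2 and 30. AT1G35255, which carries a run of 18 A, had 0.50 tags in slh1, against 23.4 in No-0. Runs of at least 15 A were found in 2 of the 13 lower genes, in 0 of the 13 higher genes and in 6.14% of close genes, and without such loci 13 genes were higher and 11 lower. With both strands summed 8 of the 13 lower genes were still apart, and ARF1, AT2G45520, KAB1, LGO and CAM1 were not. LGO then had 6 tags in slh1, against 26 in No-0, a log2 ratio of -1.26 (-2.83 to 0.06) in place of -3.73.

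**Figure D3:**
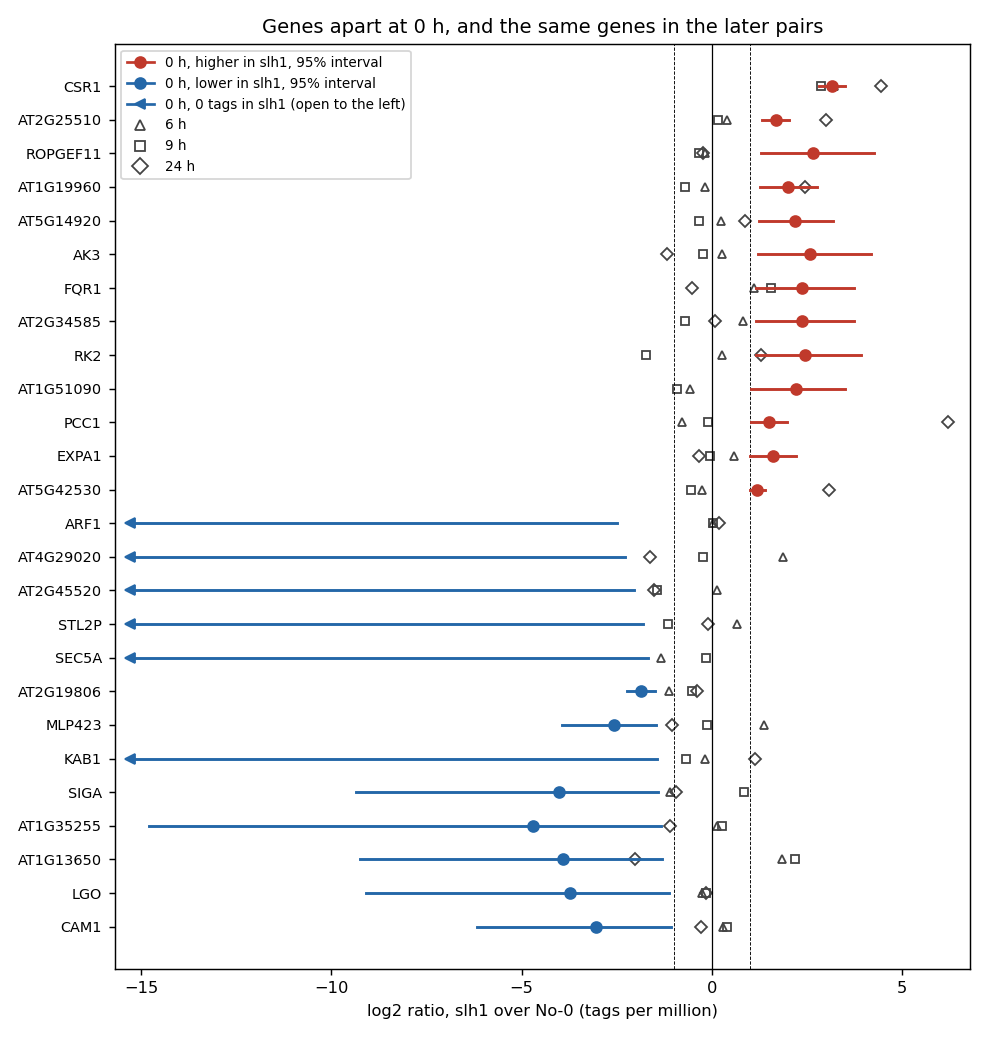
Log2 ratio of slh1 over No-0 for the 26 genes apart at 0 h, with filled points and 95% intervals for 0 h (red higher, blue lower, arrows for 0 tags in slh1) and open symbols for 6, 9 and 24 h, drawn where both libraries had tags. Dashed lines mark 2-fold. The open symbols of CSR1 stay between 2.88 and 4.45, while those of ARF1 lie between 0.03 and 0.18.

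Whether the genes apart at 0 h were apart again was read from the later libraries. Of the 13 higher genes, 8, 3 and 8 had a ratio above 1 at 6, 9 and 24 h, where 65.6%, 55.9% and 35.6% of the 2302 genes did. The interval lay beyond 2-fold in the same direction for CSR1 at 6 and 9 h, and at 24 h for 5 genes, namely CSR1, AT2G25510, AT1G19960, PCC1 and AT5G42530 (among the 2302 genes 1.35%, 0.65% and 0.70% did so). Of the 13 lower genes, 5, 8 and 11 had a ratio below 1 at 6, 9 and 24 h, where 34.4%, 44.0% and 64.0% of the 2302 genes did. The interval lay below 1 for 1, 2 and 4 of them, against 188, 263 and 408 of the 2302 genes. None was beyond 2-fold lower at any later time, where 0.17%, 0.13% and 0.74% of the 2302 genes were. At such shares none among 13 says little. AT2G19806 was below 1 by its interval in all 3 later pairs, from -1.34 to -0.90 at 6 h, from -0.72 to -0.33 at 9 h and from -0.60 to -0.16 at 24 h. ARF1 had 162, 134 and 156 TPM in slh1 at 6, 9 and 24 h, against 159, 132 and 137 TPM in No-0. AT4G29020 was beyond 2-fold higher in slh1 at 6 h, with 78.5 tags (199 TPM) in slh1, against 17 tags (54.1 TPM) in No-0. MLP423 had 335 TPM in slh1, against 130 TPM in No-0 at 6 h, and 53.5 and 111 TPM at 24 h.

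The 4 genes other than CSR1 that were apart at 0 h and at 24 h followed another course at 6 and 9 h. PCC1 had 476, 145, 635 and 1170 TPM in slh1 at 0, 6, 9 and 24 h, against 168, 248, 684 and 15.9 TPM in No-0. AT5G42530 had 2560, 1343, 1985 and 6106 TPM in slh1, against 1116, 1594, 2917 and 725 TPM in No-0. AT1G19960 had 264, 246, 436 and 370 TPM in slh1, against 66.2, 277, 712 and 67.5 TPM in No-0. PCC1 and AT5G42530 were apart at 0 h on the scale of total sense tags and under no other scaling. For PCC1, AT5G42530 and AT1G19960 the slh1 value lay above that of No-0 at 0 and 24 h and below it at 6 and 9 h. AT2G25510 had 907, 536, 959 and 1717 TPM in slh1, against 284, 404, 855 and 214 TPM in No-0, and its slh1 value was above that of No-0 in all 4 pairs. ACD6, above 2-fold by its point ratio at 0 h, had 341, 128, 180 and 297 TPM in slh1, against 138, 79.5, 135 and 13.9 TPM in No-0. In PCC1 and in ACD6 the interval at 24 h lay beyond 2-fold, from 5.20 to 7.43 and from 3.29 to 5.79.

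**Figure D4:**
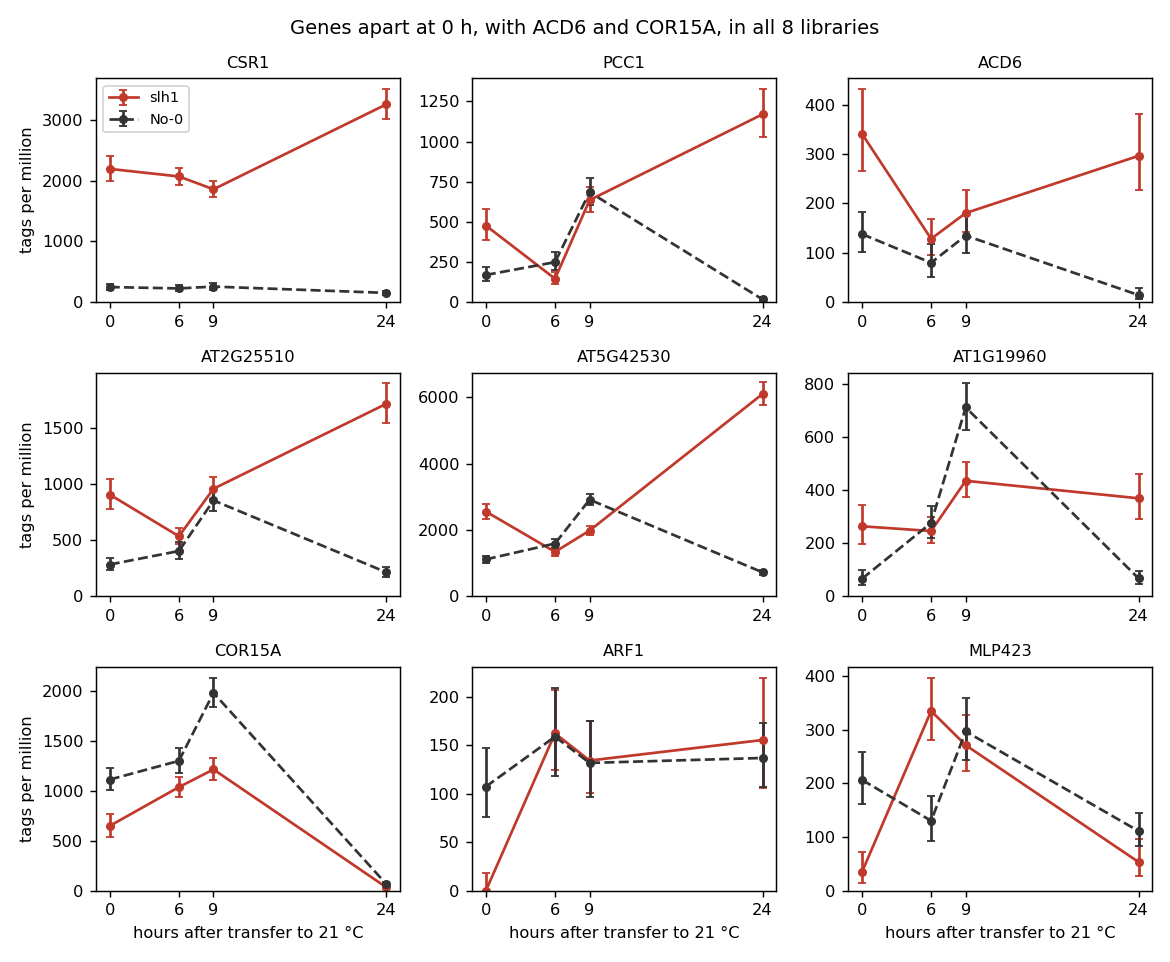
Levels of 9 genes in TPM at 0, 6, 9 and 24 h after the transfer, slh1 in solid red and No-0 in dashed black, with 1 library per point. The 95% Poisson intervals cover counting error only and are exact for whole counts. CSR1 is above No-0 in all 4 pairs, PCC1 separates at 0 h (476 and 168) and at 24 h (1170 and 15.9), and ARF1 is at 0 in slh1 at 0 h and level with No-0 later.

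The 6 libraries at 21 °C gave the one test that uses no 0 h value. With the time point as a block, the quasi-likelihood test of edgeR with Benjamini-Hochberg adjustment tested 4261 genes and called 1 gene higher in slh1 (0.0235%) and 0 lower, with 240 genes at an unadjusted p below 0.05, while DESeq2 called 2 genes and limma-voom 3. Without the 6, 9 and 24 h pair in turn the test called 11, 1 and 74 genes. The gene called was CSR1, with a log2 fold change of 3.41 ± 0.31 (SE, 3 pairs) and an edgeR adjusted p of 0.000350. It was higher in slh1 in 3 of 3 pairs. Without the time block its edgeR adjusted p was 0.0782. Of the 2302 genes 2157 were tested, so the 4261 tested genes are not the 4261 with 20 tags in any library. Of the 26 genes apart at 0 h 22 were tested and 1 was called. The log2 fold change of AT2G25510 was 1.03 ± 0.46 with an edgeR adjusted p of 0.849, and that of PCC1 was 0.95 ± 0.93 (edgeR adjusted p 0.912), while without the 6 h pair they had 1.52 (edgeR adjusted p 0.0200) and 2.40 (edgeR adjusted p 0.00493). AT2G19806 had -0.76 ± 0.22 (edgeR adjusted p 0.794), and -1.0003 without the 24 h pair (edgeR adjusted p 0.000107). AT5G42530 had 0.53 ± 0.57 (edgeR adjusted p 0.927) and turned to -0.59 without the 24 h pair (edgeR adjusted p 0.0172). This test has 2 residual degrees of freedom, and its error reflects how the difference between genotypes varied from time to time. edgeR adjusts this error with information from all genes, so its p-values do not rest on the 3 pairs of a gene alone. The SE was derived from the log2 fold change and the test statistic, and is not the spread over the 3 pairs.

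Across genes, ratios at 0 h bore little relation to ratios later. Over genes with 20 or more tags in both pairs, Pearson's r of the log2 ratios was 0.01 between 0 and 6 h (1950 genes), -0.01 between 0 and 9 h (1927 genes) and 0.10 between 0 and 24 h (1775 genes), on the scale log2(TPM + 5). Between 6 and 9 h it was 0.30 (2378 genes). With 100 or more tags it was 0.21, 0.23 and 0.39 for 0 h against 6, 9 and 24 h, and 0.10, 0.11 and 0.26 without CSR1. Genes of 1 library share its depth and preparation, so these values are descriptions.

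Photosynthesis genes had like levels in the 2 genotypes. All 22 measured genes for light-harvesting proteins, Rubisco small subunits and Rubisco activase were close, where 33.4% of all genes were. Each of them had more than 300 tags, and of all genes sampled that deeply 94.0% were close. Their log2 ratios were -0.48 to 0.21 with a median of 0.01. The interval lay above 1 for 3 and below 1 for 5 of the 22, against 11.7% and 12% of all genes. RBCS1A, the main small subunit gene of Rubisco, had 3635 tags (18119 TPM) in slh1, against 6778.5 tags (18686 TPM) in No-0, a log2 ratio of -0.04 (-0.10 to 0.01). RBCS3B had 10960 TPM in slh1, against 10943 TPM in No-0, and LHCA1, an antenna protein of photosystem I, had 6505 and 6244 TPM. LHCB2.3 was the lowest of the list, with 133 tags (663 TPM) in slh1, against 336 tags (926 TPM) in No-0, a log2 ratio of -0.48 (-0.78 to -0.19). CA1, a carbonic anhydrase, had 7240 TPM in slh1, against 6288 TPM in No-0, and DRT112, a plastocyanin, had 6819 and 5797 TPM, and both were close. CA1 overlaps a neighbour on the same strand, AT3G01510, and members of these families share tags. Chloroplast loci with the most tags were close as well, among them ATCG00950 and ATCG01180, which had the same split count of 61605 TPM in slh1, against 70817 TPM in No-0. Of 94 chloroplast loci 49 (52.1%) were close and none was apart, where 33.4% and 1.13% of all genes were. These shares were not matched for tags, with which closeness rose.

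Most common reference genes were close. Of 11 measured genes 8 were close and none was apart, with a median log2 ratio of 0.13. All 8 had 100 or more tags, where 72.8% of genes with 100 to 300 tags and 94.0% of those with more were close, and 1.13% of all genes were apart. UBQ10, a polyubiquitin gene, had 95 tags (474 TPM) in slh1, against 156.8 tags (432 TPM) in No-0, and ACT2, an actin, had 37 tags (184 TPM) and 81 tags (223 TPM). Of 10 genes of redox and glutathione metabolism 7 were close and none was apart, where 33.4% and 1.13% of all genes were. Of these 10 genes 4 had 100 to 300 summed tags and 4 had 300 or more, where 72.8% and 94.0% of genes were close. The share of close genes is thus not particular to this list. The catalase CAT2 had 140 tags (698 TPM) in slh1, against 359 tags (990 TPM) in No-0, a log2 ratio of -0.50 (-0.80 to -0.22), and the iron superoxide dismutase FSD1 had 135 tags (673 TPM) and 173 tags (477 TPM), a log2 ratio of 0.50 (0.16 to 0.83). None of 8 genes of senescence and starvation reached 20 tags, and they summed to 3 tags in slh1, against 7.5 in No-0.

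Some cold-response genes were lower in slh1 before the shift. Of 8 measured genes none was apart and 3 were close, where 1.13% and 33.4% of all genes were. The interval lay below 1 for 3 (37.5%, against 12% of all genes) and above 1 for none. COR15A, which encodes a protein that protects chloroplasts from freezing, had 130 tags (648 TPM) in slh1, against 403 tags (1111 TPM) in No-0, a log2 ratio of -0.78 (-1.07 to -0.49). COR15B, its paralog, had 74 tags (369 TPM) in slh1, against 209 tags (576 TPM) in No-0, a log2 ratio of -0.64 (-1.05 to -0.25). LTI78, a hydrophilic protein gene of drought and cold, had 30 tags (150 TPM) in slh1, against 95 tags (262 TPM) in No-0, a log2 ratio of -0.81 (-1.45 to -0.20). KIN2 was close, with 203 tags (1012 TPM) in slh1, against 315 tags (868 TPM) in No-0. The list's median log2 ratio was -0.41 at 0 h and -0.61, -0.97 and -0.34 at 6, 9 and 24 h, where the 2302 genes had medians of -0.07, 0.24, 0.08 and -0.22. With genes of 10 or more tags the median at 0 h was -0.13. The 9 cold genes under 20 tags went the other way, with 40 tags (199 TPM) in slh1, against 39.5 tags (109 TPM) in No-0. Their sum had a log2 ratio of 0.87 (0.20 to 1.54), with 6 genes higher and 2 lower in slh1.

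Heat and warmth genes were weakly counted at 28 °C. Of 18 genes 5 had 20 or more tags, none was apart (against 1.13% of all genes), and the median log2 ratio was 0.36. HSC70-1, a constitutive heat shock cognate protein, had 118 tags (588 TPM) in slh1, against 157 tags (433 TPM) in No-0, a log2 ratio of 0.44 (0.09 to 0.80). PIF4, a transcription factor of growth in the warmth, stayed under 20 tags with 15 in slh1, against 9 in No-0, a log2 ratio of 1.59 (0.31 to 2.97). Of 7 measured clock genes none was apart, against 1.13% of all genes. GRP7 and CCR1 (GRP8), RNA-binding proteins under clock control, had 481 tags (2398 TPM) and 209 tags (1042 TPM) in slh1, against 584 tags (1610 TPM) and 285 tags (786 TPM) in No-0, with log2 ratios of 0.57 (0.40 to 0.75) and 0.41 (0.14 to 0.67). PCL1 (LUX), a member of the evening complex, had 3.5 tags in slh1, against 28.2 in No-0, a log2 ratio of -2.15 (-4.29 to -0.56), with counts that were not whole.

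**Figure D5:**
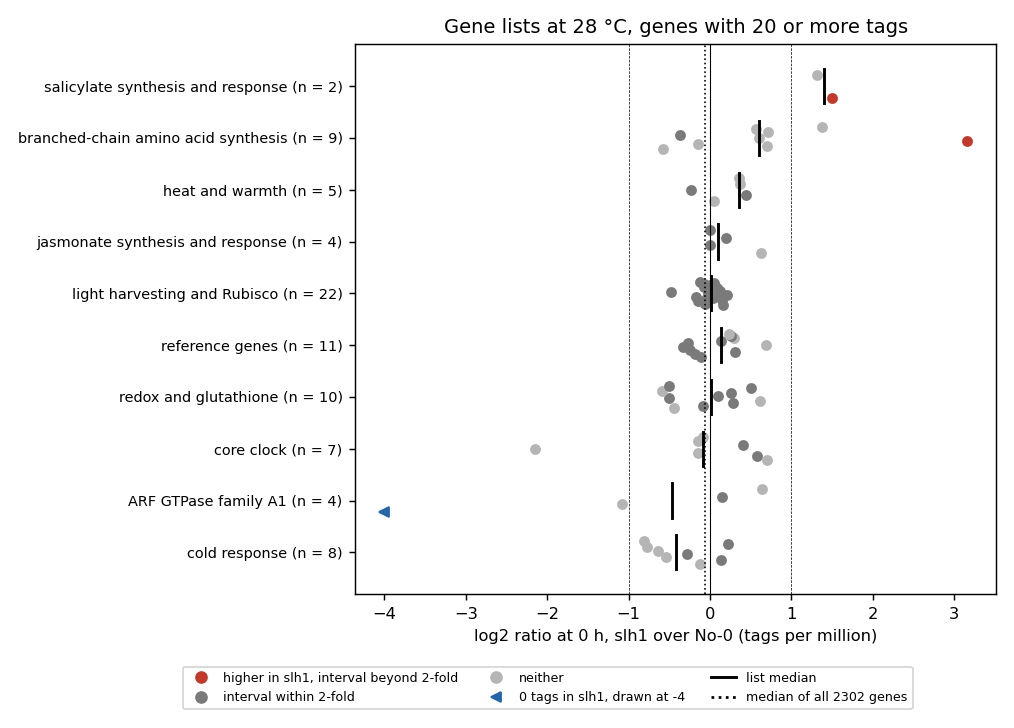
Log2 ratio of slh1 over No-0 at 0 h for the genes of 10 lists that had 20 or more tags, 1 point per gene, with the list median as a black bar and the median of all 2302 genes (-0.07) as a dotted line. Dashed lines mark 2-fold. The 22 genes for light harvesting and Rubisco lie between -0.48 and 0.21, and only CSR1, PCC1 and ARF1 are beyond 2-fold by their intervals.

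The scale of the libraries moved every ratio by the same amount. TMM scaling lowered each log2 ratio by 0.18, to a median of -0.25 over the 2302 genes, and gave 6 higher and 23 lower genes in place of 13 and 13, while RLE size factors gave 9 and 20 and nuclear totals 10 and 15. The shift of each log2 ratio was -0.18 with TMM, -0.12 with RLE and -0.04 with nuclear totals. All 13 lower genes stayed apart, which these downward shifts fixed in advance, while higher genes could only lose their call. Of the 13 higher genes 6, 9 and 10 stayed apart under TMM, RLE and nuclear totals, CSR1 among them each time. PCC1, AT5G42530 and EXPA1, whose lower bounds were 1.02, 1.01 and 1.01, were no longer apart under any of the 3 scalings. Under TMM scaling the list medians of jasmonate (-0.08), light-harvesting (-0.17), redox (-0.17) and reference genes (-0.05) turned negative. Those of salicylic acid (1.23), branched-chain amino acid (0.42), heat (0.18) and cold genes (-0.59) kept their sign. These signs follow from the uniform shift alone, since only positive medians smaller than 0.18 could turn negative.

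Some groups were formed from the annotation after the values were seen. Of 186 measured genes for nuclear ribosomal proteins none was apart and 79 (42.5%) were close, where 1.13% and 33.4% of all genes were. Their median log2 ratio was -0.20, and 124 of them lay below 1, as did 55.4% of all genes. The share of close genes rose with tags, for which these 186 genes were not matched. Of 5 measured disease resistance genes none was apart or close, against 1.13% and 33.4% of all genes. Of these 5 genes 3 lay above 1 and 2 below, and the median was 0.56. Of 21 histone genes none was apart, against 1.13% of all genes, and the median was -0.43. Their interval lay below 1 for 5 (23.8%, against 12% of all genes) and above 1 for none (against 11.7%). Of 26 heat shock and DnaJ genes none was apart, against 1.13% of all genes, with a median of 0.24. By position, 5 of the 13 higher and 7 of the 13 lower genes lay on chromosome 1, which held 24.4% of the 2302 genes.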

How the data were processed

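EXPRSS Tag-seq primes cDNA with oligo-dT, shears it by ultrasound and amplifies only the piece that ends at the poly(A) tail. For each library the authors deposited unscaled expected counts of tags by locus. Per the study's methods, reads were filtered by quality and aligned to TAIR10, and a read on several genes was split equally between them, so that counts need not be whole (10.6% of rows in slh1 and 12.5% in No-0 at 0 h, at a tolerance of 1e-06). Of the 2302 genes, 531 (23.1%) had such a count. Bowtie is named for the general pipeline and BWA for paired reads, so the aligner is uncertain. The submitters' processing notes list Bowtie 0.12.8, Novoalign 2.08.03 and R 2.15.3. Rows with a prefixed locus were read as antisense, which the files do not state.

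Samples were grouped by genotype and time in their titles, and a sample of reads assigned to no barcode was left out. Sense tags were scaled to 1000000 per library. Intervals of ratios are 95% intervals (Clopper-Pearson, SciPy 1.17.1), exact for whole counts and approximate for split counts. They cover counting error only, since no molecular identifiers were used. Genes at 0 tags were set against a floor of 3 tags per library. Counts at 21 °C were rounded and tested with edgeR 4.0.16 (TMM, filterByExpr, threshold 0.05), with DESeq2 1.42.0 and limma 3.58.1 as alternatives, in R 4.3.3. P-values measure only the spread between these samples, with the error adjusted by information from all genes. On simulated data for this test, 96.3% of 81 genes changed 4-fold and 100% of 76 changed 8-fold were recovered among 3881 genes. These are the genes that passed the filter, out of 200 that were changed. The simulation used the same dispersion for all genes and a fold that was equal at each time. It therefore does not give the power for real differences that varied with time. Symbols, coordinates and runs of A come from TAIR10.1 (95.6% of the 2302 genes matched by locus), and protein identity from BLAST+ 2.17.0. Named genes are up to 15 in each direction beyond 2-fold, the 10 close genes with the most tags, and members of 14 lists. These lists and the genes were chosen with earlier results of these data known.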

Additional observations from a re-analysis of the deposited data

Results flagged for a closer look

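Antisense tags lie outside the main measurement. At 0 h 306 loci had 20 or more antisense tags in slh1 or No-0, of which 2 were higher in slh1 beyond 2-fold by the interval, 1 was lower and 84 were close. CSR1 had 24 antisense tags (120 TPM) in slh1, against 5 (13.8 TPM) in No-0, a log2 ratio of 3.118 (95% interval 1.699 to 4.86). In the later pairs its antisense tags were 80, 72 and 73 in slh1 at 6, 9 and 24 h, against 15, 16 and 11 in No-0. ACD6 had 30 antisense tags (150 TPM) in slh1, against 6.5 (17.9 TPM) in No-0, a log2 ratio of 3.061 (1.81 to 4.55). Its antisense tags were 5.5, 7 and 23 in slh1 at 6, 9 and 24 h, against 7, 5.5 and 2 in No-0. The lower locus was MLP423, with 5 antisense tags in slh1, against 47 in No-0, and its sense tags were lower as well.

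For a pair of genes the difference at 0 h and those at 6, 9 and 24 h had opposite signs. ARF1 had 0 tags in slh1, against 39 in No-0 at 0 h, and a median log2 ratio of 0.03035 over the 3 later pairs, in each of which slh1 was slightly above No-0. ROPGEF11 had 21 tags in slh1, against 6 in No-0 at 0 h, and a median log2 ratio of -0.2318 over the 3 later pairs, in each of which slh1 was below No-0. Neither change of sign was tested.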

How the results depend on the processing

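The counts of genes apart at 0 h depended on the scale and on the filter. In the order higher then lower in slh1, they were 13 and 13, against 6 and 23 with TMM scaling, 9 and 20 with RLE size factors, 6 and 1 with 20 tags in both libraries, 7 and 2 with a mean of 20 tags, 47 and 24 with 10 tags in either library, 92 and 24 with no filter, 3 and 7 with a 99% interval, 47 and 39 with a fold of 1.5, and 1 and 3 with a fold of 4. The 770 close genes became 489 with the 99% interval, 228 with a fold of 1.5 and 1918 with a fold of 4. Nuclear totals, whole counts, both strands summed and, chosen after seeing the data, the removal of loci with at least 15 consecutive A kept these counts within 1.5 times. The genes behind them differed, since 8 of the 13 lower genes were still apart with both strands summed and 10 of the 13 higher ones with nuclear totals. Pearson's r was 0.95 with 20 tags in both libraries and 0.64 with no filter. List medians moved under TMM scaling for branched-chain amino acid (0.42), cold (-0.59), light-harvesting (-0.17), clock (-0.27), redox (-0.17) and reference genes (-0.048), and with 10 tags for branched-chain amino acid (0.12), cold (-0.13) and clock genes (0.16). At 21 °C, 14 genes were called with no filter, 2 by DESeq2, 3 by limma-voom and 0 without the time block, and 11, 1 and 74 without the 6, 9 and 24 h pair in turn. AT5G42530 turned to a log2 fold change of -0.59 without the 24 h pair. The cause of these changes was not tested, beyond the numbers of genes and samples that each setting uses. At 0 h no paired analysis was possible because each group has 1 library, whereas at 21 °C the time point paired the genotypes as a block. Depth limits genes near 20 tags, of which few could be called in either direction.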

Other observations

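For 3 clock genes and 1 starvation gene, chosen after their values were seen, tags at 0 h and at 24 h were far apart in both genotypes. LHY, a morning transcription factor of the clock, had 0 tags at 0 h and 63 at 24 h in slh1, and 0 and 155 in No-0. LCL1 (RVE4) had 4 and 53 tags in slh1, and 8 and 126 in No-0. GRP7 had 481 and 32 tags in slh1, and 584 and 86 in No-0, with similar sense totals of 200614 and 205619 tags in slh1 and a larger one at 24 h in No-0. ASN1, an asparagine synthetase gene of dark and sugar starvation, had 0 and 18 tags in slh1, and 0 and 63 in No-0. Per the methods, plants were moved to the cooler chamber at light onset and the hours count from that move.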
